A study of Homo sapiens with 8 samples.

Results

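The endoplasmic reticulum (ER) membrane protein complex, EMC, was examined at the mRNA level through its 10 subunit genes: EMC1, EMC2, EMC3, EMC4, MMGT1 (also called EMC5), EMC6, EMC7, EMC8, EMC9 and EMC10. The genes were taken by name, and all 10 were found among the 30755 gene symbols of the RNA-seq table. They were taken up because EMC7 was lower after knockdown of HNF4A, and the question was whether the other subunits followed it. The values that drew attention to EMC7 are therefore given as a description, without a test, while the other 9 subunits entered by membership of the complex and not by their values.

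The cells were ESO26, a cell line established from an adenocarcinoma of the oesophagus, grown in RPMI-1640 medium with fetal bovine serum and antibiotics. Control libraries came from cells labelled control and knockdown libraries from cells labelled HNF4A knockdown, treated with a small interfering RNA (siRNA) against HNF4A, a transcription factor of gut and liver. There were 2 libraries in each group, and neither the time after transfection, nor the siRNA sequence, nor the nature of the control treatment is given in the labels. The design text of the series names a higher number of RNA-seq replicates than these 2, and any others were not analysed here, so each SD and p-value rests on 2 libraries per group. The letter B in the knockdown titles is not explained. The labels do not say that the libraries came from separate cultures, so p-values take in no spread beyond these libraries. In limma, the fit used here, the variance of each gene is drawn toward that of genes of like expression. A p-value therefore does not rest on the gene's own values alone. A fit of 2 against 2 has no exact permutation p below 0.333 for a single gene.

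The EMC sits in the ER membrane and places hydrophobic segments of new proteins into the lipid bilayer. It is known for inserting tail-anchored proteins, which carry their single membrane segment at the far end of the chain, and the first segments of many receptors and transporters with several such segments. EMC3 and EMC6 form the insertase core in the membrane with MMGT1, EMC2 and its partner EMC8 or EMC9 cap the complex on the cytosolic side, and EMC1, EMC7 and EMC10 carry folded domains in the ER lumen. In human cells, loss of EMC1, EMC2, EMC3, MMGT1 or EMC6 is known to destabilise the whole complex, while EMC7 and EMC10 lie at its periphery.

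The 250 bases upstream of the annotated start are printed for EMC7, whose mRNA was lowest relative to control, for EMC4, which lies near EMC7 on chromosome 15, and for EMC6, whose mRNA was higher. The RefSeq promoter table (build GRCh38.p14) supplied them, and in it 8 of the 10 subunit genes had an entry. They run 5′ to 3′ on the strand of the gene. Capitals mark matches, on either strand, to the letters CAAAGTCCA (an HNF4 site), CCGGAAG (an ETS site), GGGCGG (a GC box), CCAAT (the CCAAT box) or TGACGTCA (a cyclic AMP response element). Overlapping matches run together in capitals.
EMC7, chr15:34101863-34102112, minus strand: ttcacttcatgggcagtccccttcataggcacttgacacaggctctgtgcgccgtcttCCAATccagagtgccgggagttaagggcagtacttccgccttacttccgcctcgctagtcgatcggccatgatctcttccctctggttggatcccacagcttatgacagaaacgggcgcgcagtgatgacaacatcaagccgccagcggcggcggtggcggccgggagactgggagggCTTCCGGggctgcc
EMC4, chr15:34224766-34225015, plus strand: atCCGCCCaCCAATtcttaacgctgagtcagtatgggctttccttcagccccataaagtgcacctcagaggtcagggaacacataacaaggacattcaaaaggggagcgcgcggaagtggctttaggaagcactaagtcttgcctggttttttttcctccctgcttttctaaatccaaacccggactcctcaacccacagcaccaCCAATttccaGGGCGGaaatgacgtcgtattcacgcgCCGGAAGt
EMC6, chr17:3668562-3668811, plus strand: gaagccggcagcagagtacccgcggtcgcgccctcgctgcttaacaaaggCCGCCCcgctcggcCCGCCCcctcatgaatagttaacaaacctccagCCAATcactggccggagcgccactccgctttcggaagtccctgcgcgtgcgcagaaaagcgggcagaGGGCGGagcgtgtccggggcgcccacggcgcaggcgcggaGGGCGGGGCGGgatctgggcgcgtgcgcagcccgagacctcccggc

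The HNF4 letters were in none of the 8 upstream windows of subunit genes and in 0.325% of the 35116 windows of the table. The ETS letters were in 3 of the 8, those of EMC7, EMC4 and EMC8, against 8.52% of all windows, and in EMC7 and EMC4 they lay within the last 14 and the last 8 bases before the start. The GC box was in 6 of the 8, against 42.6% of all windows, with 5 matches for EMC6 and none for EMC7. The CCAAT box was in 5 of the 8, against 32% of all windows. The response element was in 1 of the 8, that of EMC10, which held 3 matches, against 1.65% of all windows. The number of CpG dinucleotides ran from 12 in EMC4 to 35 in EMC8, with 18 in EMC7 and 33 in EMC6, and the median over all windows was 11. These matches describe letters only, and binding was not assigned to these genes here.

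HNF4A itself, the targeted gene, had 4129 and 3937 normalized counts in the control libraries and 1140 and 932 after knockdown, 25.7% of the control mean. The authors call these values normalized counts, and neither the method of normalization nor any division by gene length is given in the sources used here. The values sum to between 17912507 and 18613685 per library. The number of reads behind a value is unknown. Of 15577 tested genes 14.1% were called, meaning that they had an adjusted p under 0.05 in limma, 6.02% higher and 8.11% lower in the knockdown. With libraries rescaled to equal totals the share of called genes that were higher went from 42.6% to 53.0%. The 8 columnar epithelial markers summed to between 95544 and 109944 normalized counts per library. The squamous markers summed to at most 36.2, with TP63 and KRT4 not in the table, and fibroblast, endothelial and leukocyte markers to between 255 and 366. Markers moved with the knockdown as well: 5 of the 8 columnar markers were called lower and 1 higher, and VWF and KRT14 were called higher from low levels. KRT5, the other tested squamous marker, had a log2 fold change of -1.21 (adjusted p = 0.190 in limma), and the other 5 tested fibroblast, endothelial and leukocyte markers lay between -0.86 for LYZ and 0.57 for COL1A1, none of them called. Their part in the results for the EMC was not tested. In such bulk samples fewer cells of a kind and less RNA per cell cannot be told apart.

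EMC7 is a lumenal subunit with a folded domain anchored by a membrane segment. It had 1038 and 1071 normalized counts in the control libraries and 372 and 314 in the knockdown libraries. The groups lay far apart, and the knockdown mean of 343 ± 41.5 (SD, n = 2) was 32.5% of the control mean of 1055 ± 23.0 (SD, n = 2). The log2 fold change of the normalized count plus 1 was -1.62, against -1.97 for HNF4A. In the order of falls among the 10918 genes that averaged 100 normalized counts or more, EMC7 stood at place 7. CCND1, which encodes cyclin D1, stood just before it with a log2 fold change of -1.63, and SLX1A, a subunit gene of a DNA endonuclease, just after it with -1.55.

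**Figure D1:**
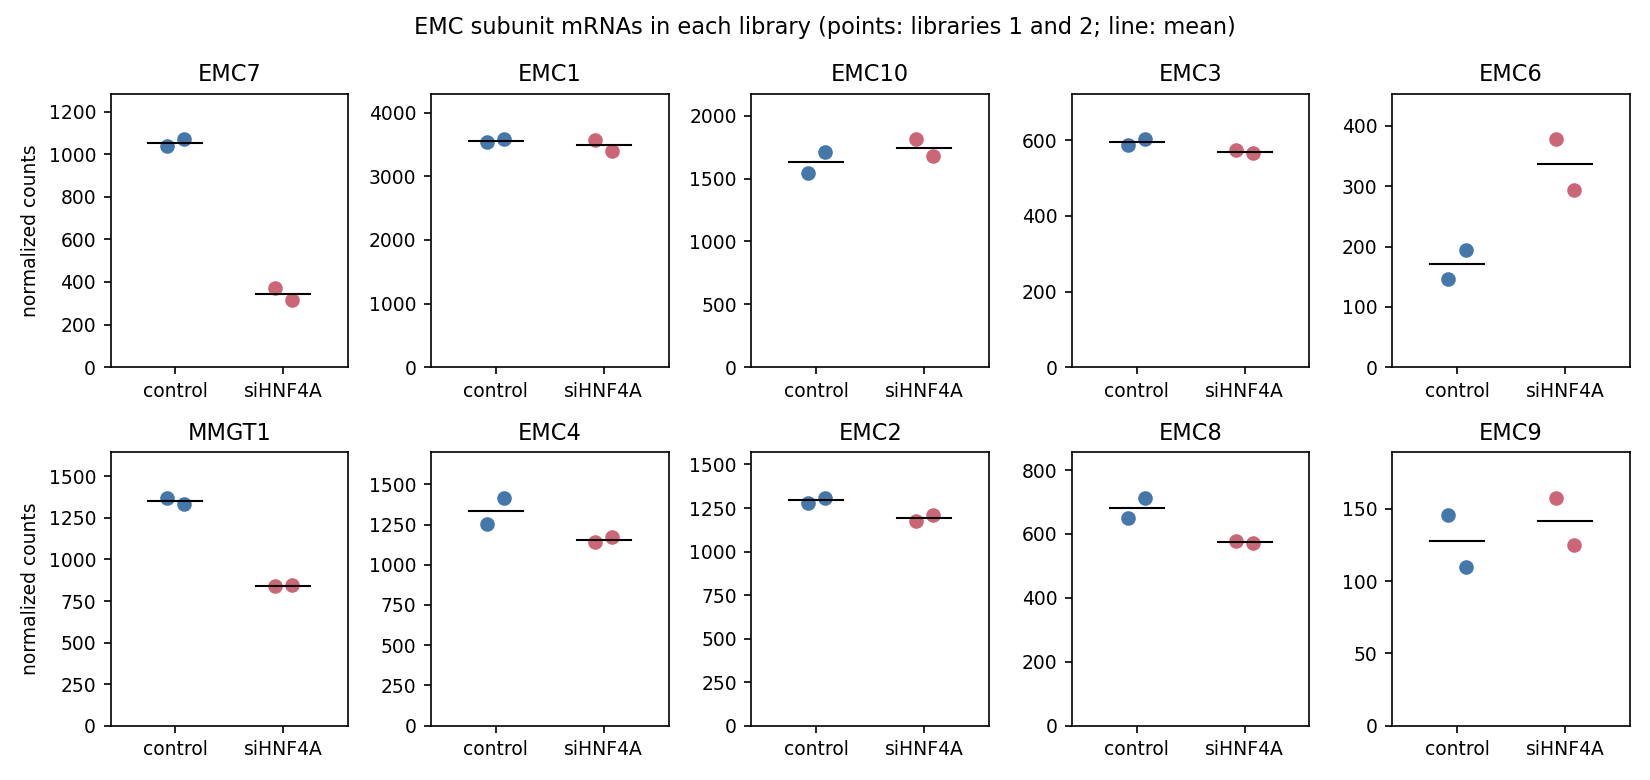
Normalized counts (vertical axis, from 0, with its own scale in each panel) of the 10 EMC subunit mRNAs in the 2 control and the 2 siHNF4A libraries; points are libraries and lines are group means. EMC7 went from a mean of 1055 to 343 and MMGT1 from 1352 to 842, EMC6 went from 171 to 336, and the points of EMC1, EMC9 and EMC10 overlap between the groups.

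Of the other 9 subunits, 2 were called over all genes tested, in opposite directions: MMGT1 fell and EMC6 rose. This is 22.2% of the 9, beside 14.1% of all genes tested, and with 9 genes this difference is not read as a result about the subunits as a set. Both belong to the membrane core together with EMC3, which was not called. The other 7 had log2 fold changes between -0.24 for EMC8 and 0.15 for EMC9. The median of the 9 was -0.061, with 6 lower and 3 higher, beside a median of -0.0073 over all genes tested. Both libraries of each group lay on one side of the other group for 6 of the 9, against 57.0% of all genes tested. Over the 9 the median absolute log2 fold change was 0.15, and over all genes 0.20. Leaving out siHNF4A 1 left MMGT1 as the 1 called subunit. A fit without 1 library has a single library in that group, which is assumed to vary like the pair in the other group. The gene's own part of the spread then comes from that pair alone, and limma draws it toward that of genes of like expression. Such fits called 2449 and 1982 genes without control 1 and control 2, and 1101 and 1013 without siHNF4A 1 and siHNF4A 2, and a call kept or lost in them is a description of the fit and not a measure of stability.

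Among the lumenal subunits, EMC1 is the largest of the complex and spans lumen and membrane. It had 3538 and 3584 normalized counts in the control libraries and 3572 and 3401 in the knockdown libraries, so that the groups overlapped. Its log2 fold change was -0.031, with a 95% interval from -0.17 to 0.11 and an adjusted p of 0.787 in limma. The sign of this value changed with equal library totals, after quantile normalization and without siHNF4A 2. EMC10, a lumenal subunit at the edge of the complex, had 1544 and 1712 in the control and 1813 and 1678 in the knockdown. The groups overlapped here too, and the log2 fold change was 0.10 with an interval from -0.083 to 0.29 (adjusted p = 0.465 in limma). The value was 0.027 without control 1, 0.18 without control 2, 0.045 without siHNF4A 1 and 0.16 without siHNF4A 2. The intervals of this fit are for single genes and are not adjusted for the number of genes tested.

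In the membrane core, MMGT1 fell. It had 1372 and 1331 normalized counts in the control libraries and 840 and 844 after knockdown. The knockdown mean was 62.3% of that of the control. All values within a group lay within a factor of 1.03 of each other, and the groups were well separated. On the log2 scale the change was -0.68 (standard error 0.081, adjusted p = 8.17e-04 in limma). A change at least as low was seen in 3.29% of all genes tested, and 17.6% of the genes called lower fell further. Without the trend between variance and expression in the fit, the adjusted p of MMGT1 was 0.0977 in limma, and its other alternatives ranged from 1.72e-04 to 0.0156. MMGT1 lies on the X chromosome.

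EMC6, the small membrane subunit that packs against EMC3, rose. It had 147 and 194 normalized counts in the control libraries and 378 and 295 in the knockdown libraries. Every knockdown value lay above every control value, with replicates that differed by factors of 1.32 and 1.28. The knockdown mean was 1.97 times the control mean, and the log2 fold change was 0.98 with a 95% interval from 0.57 to 1.38 and an adjusted p of 0.0072 in limma. A change at least as high was seen in 2.42% of all genes tested. The call was lost without siHNF4A 1, with a log2 fold change of 0.80 (adjusted p = 0.0599 in limma). It was also lost with all genes above 0 tested (adjusted p = 0.0652 in limma) and without the variance trend (adjusted p = 0.138 in limma), while its other alternatives gave between 2.20e-04 and 0.0144. EMC6 is a short gene on chromosome 17 that overlaps the readthrough gene P2RX5-TAX1BP3 in RefSeq. That gene had 26.9 and 31.2 normalized counts in the control and 17.9 and 31.4 in the knockdown (adjusted p = 0.686 in limma). Use of the strand in counting is not given in the sources used here, so reads may be shared wherever a subunit gene overlaps another gene.

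EMC3, related to bacterial and mitochondrial insertases, had 587 and 603 normalized counts in the control and 574 and 566 in the knockdown. The groups did not overlap, yet the difference was small, with a log2 fold change of -0.061, an interval from -0.28 to 0.16 and an adjusted p of 0.729 in limma. The antisense gene EMC3-AS1 overlaps it and had between 71.2 and 86.5 normalized counts over the 4 libraries. EMC4, a membrane subunit, had 1256 and 1417 in the control and 1139 and 1172 in the knockdown. Both knockdown values lay below both control values, and the log2 fold change was -0.21 with an interval from -0.40 to -0.013. Over all genes tested this did not pass the threshold (adjusted p = 0.149 in limma). The value was -0.12 without control 2 (adjusted p = 0.523 in limma) and -0.29 without control 1 (adjusted p = 0.0596 in limma).

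**Figure D2:**
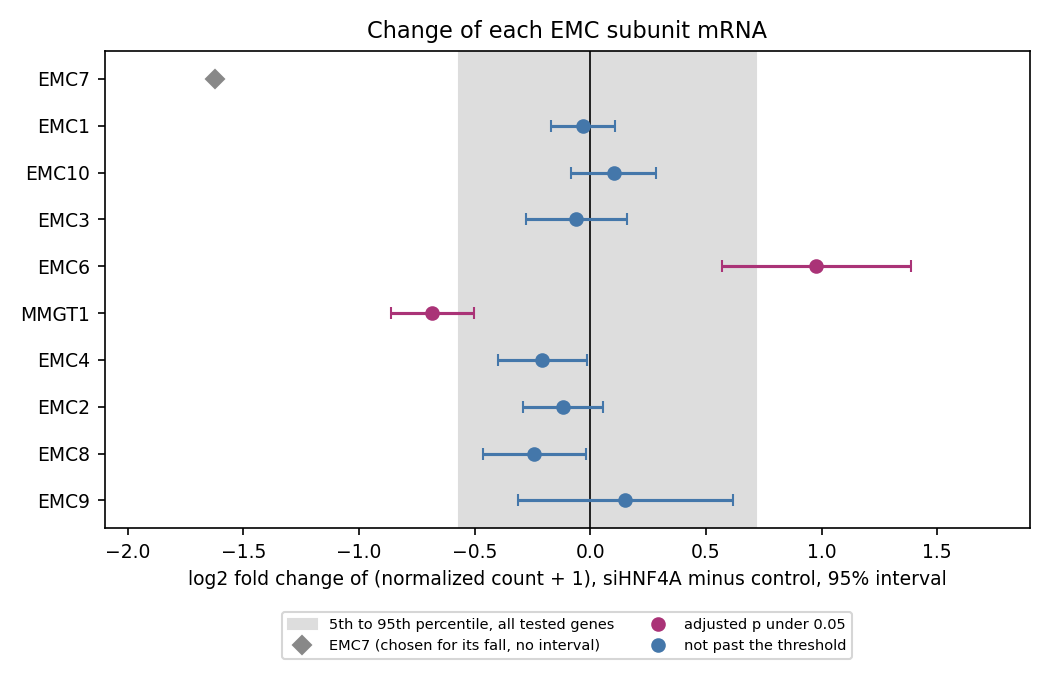
Log2 fold change of the normalized count plus 1 (horizontal axis, siHNF4A minus control) of each EMC subunit mRNA, with the 95% interval of the limma fit; the grey band holds the 5th to the 95th percentile of all 15577 tested genes. MMGT1 at -0.68 and EMC6 at 0.98 lie beyond the band on opposite sides, the other 7 tested subunits lie within it, and EMC7 at -1.62 is drawn without an interval because it was chosen for this value.

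The cytosolic subunits were not called. EMC2, the scaffold of the cytosolic cap, had 1281 and 1310 normalized counts in the control and 1177 and 1210 in the knockdown, a log2 fold change of -0.12 with an interval from -0.29 to 0.055 (adjusted p = 0.356 in limma). EMC8 had 650 and 714 in the control and 578 and 573 in the knockdown. Its knockdown values were the lower ones, with a log2 fold change of -0.24, an interval from -0.47 to -0.021 and an adjusted p of 0.141 in limma. EMC9, its paralog, had 145 and 110 in the control and 158 and 125 in the knockdown, and the groups overlapped. Its log2 fold change was 0.15 with an interval from -0.31 to 0.62 (adjusted p = 0.683 in limma), the widest interval of the 9, and the sign changed without control 2 and without siHNF4A 1. EMC8 and EMC9 take the same place in the complex, so their balance was also followed. EMC9 made up 18.3% and 13.3% of the summed normalized counts of both genes in the control and 21.5% and 17.9% in the knockdown. These shares overlapped between the groups and differed by 3.88 percentage points in the mean, between 1.40 and 6.36 when 1 library was left out.

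The make-up of the EMC mRNA was also followed. The normalized counts of the 9 subunits other than EMC7 summed to 10521 and 10975 in the control and, after knockdown, to 10229 and 9863. With EMC7 included the sums were 11559 and 12046 against 10601 and 10177. EMC7 made up 8.98% and 8.89% of the sum in the control and 3.51% and 3.08% in the knockdown, as a description of the gene chosen for its fall. MMGT1 went from 11.9% and 11.1% to 7.92% and 8.29%, and EMC6 from 1.27% and 1.61% to 3.57% and 2.89%. None of these 3 shares overlapped between the groups. This is no further support, as EMC7 was chosen for its fall and MMGT1 and EMC6 are the 2 called subunits. The sum holds EMC7, so its fall by itself raises the shares of the other subunits. As it is not known whether values were divided by gene length, the shares are compared between libraries and not between subunits.

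**Figure D3:**
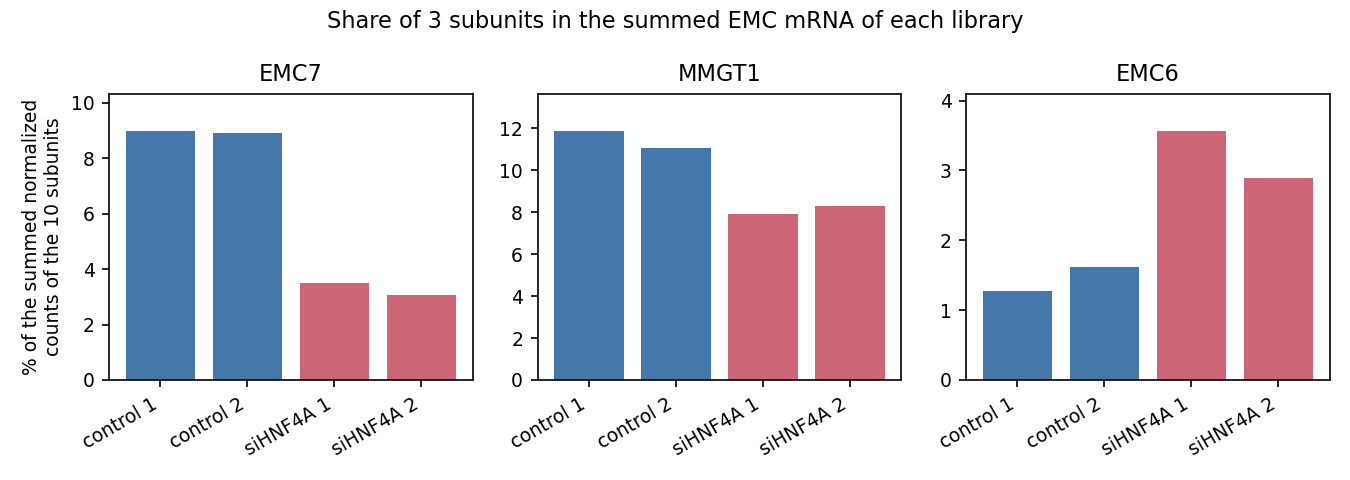
Share of EMC7, MMGT1 and EMC6 in the summed normalized counts of the 10 EMC subunits (vertical axis in percent, from 0, with its own scale in each panel), 1 bar per library. EMC7 lies near 9% in both control libraries and at 3.51% and 3.08% in the siHNF4A libraries, MMGT1 is lower and EMC6 higher in both siHNF4A libraries.

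EMC7 and EMC4 lie near each other on chromosome 15, with EMC4 the fourth named gene beyond EMC7 in RefSeq order, so the genes around EMC7 were compared. Of the 5 named genes on each side, 7 were in the table and 6 were tested, and none of the 6 was called, against 14.1% of all genes tested. At an unadjusted p under 0.05 there were 2 of the 6, AVEN and EMC4. The share of all genes at that unadjusted threshold in this fit is not given here, and without the variance trend it was 3524 of 15577 genes. The 2 are therefore not read as a result about the neighbours. AVEN, an inhibitor of cell death, had 537 and 560 normalized counts in the control and 442 and 451 in the knockdown, a log2 fold change of -0.29 (adjusted p = 0.0914 in limma). KATNBL1, a katanin-related gene, had 1036 and 1110 against 961 and 991 (adjusted p = 0.331 in limma). PGBD4, a gene derived from a transposase, had 69.6 and 44.4 against 62.0 and 61.8. RYR3, an intracellular calcium channel, was low, with at most 29.8 in any library. CHRM5, a muscarinic receptor next to EMC7, had 1.85 and 6.75 in the control and 1.36 and 1.54 in the knockdown, too low to be tested. The log2 fold changes of the 6 tested neighbours lay between -0.29 and 0.15.

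**Figure D4:**
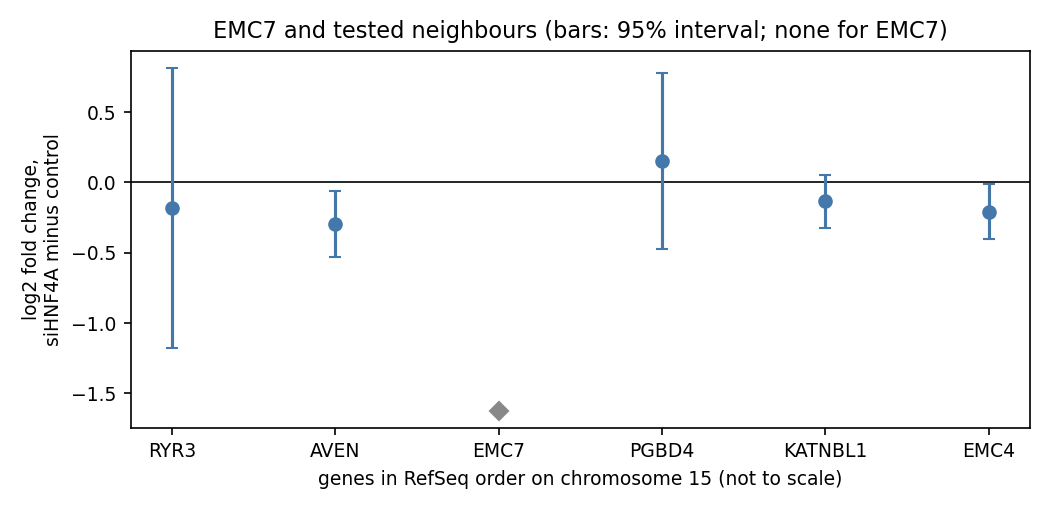
Log2 fold change of the normalized count plus 1 (vertical axis, siHNF4A minus control) of EMC7 and 5 of its 6 tested neighbours in RefSeq gene order on chromosome 15 (horizontal axis, not to scale), with 95% intervals of the limma fit. The neighbours lie between -0.29 and 0.15 while EMC7, drawn without an interval, lies at -1.62.

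The genes whose profile over the 4 libraries was nearest to that of EMC7 were looked up among the genes averaging 100 or more, by the Euclidean distance between log2 values centred on each gene's mean. Among the 5 nearest were MICB (distance 0.19), SH3GL1 (0.21), FJX1 (0.26) and SLC7A9 (0.27), and no other EMC subunit was among these 5. SH3GL1, which encodes an endophilin of endocytosis, had 1347 and 1483 normalized counts in the control and 522 and 500 in the knockdown. The likeness was chosen on a profile that a large fall dominates, and with 4 libraries it says little more than that these genes were lower by a like amount.

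Other machinery of protein entry into the ER membrane was compared through lists of genes, to see where the subunits of the EMC stood beside it. Lists of ER-associated degradation, the unfolded protein response and sterol synthesis and uptake, which are not entry machinery, were added. They held 1, 5 and 6 of the calls counted next, of which 0, 2 and 3 were higher. Over 10 lists with 121 genes, 119 were tested and 19 were called, which is 15.97% beside 14.1% of all genes, 14 of them lower and 5 higher. After quantile normalization 8 were lower and 8 higher, and with equal library totals 9 and 9. The count was 10 without control 2, 9 without siHNF4A 1, 5 without siHNF4A 2, 5 with all genes above 0 tested and 0 without the variance trend. In the 4 fits with 1 library left out, each gene's own spread rests on a single group, so their calls are not read as a measure of stability.

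The next lists hold components that bring nascent chains to the membrane and pass them through it. Of the 8 genes of the Sec61 translocon, the main protein channel of the ER, 2 were called, both lower, beside 8.11% of all genes tested that were called lower: TRAM1 fell from 4731 and 4815 to 3669 and 3834 normalized counts (adjusted p = 0.0051 in limma), and SEC61G from 908 and 893 to 699 and 738. The call of SEC61G was lost when any 1 library was left out, with equal library totals and after quantile normalization, while the Sec61 list had 3 calls without control 1. Of the 8 genes of the signal recognition particle, which carries ribosomes to the ER, and its receptor, 2 were called, both lower. The receptor subunit SRPRB fell by 0.59 on the log2 scale, from 2255 and 2655 to 1629 and 1615 (adjusted p = 0.0022 in limma), and SRP72 fell by 0.28. Without control 2, siHNF4A 1 or siHNF4A 2, SRP72 was not called, which left SRPRB as the 1 called gene of its list. The median log2 fold change was -0.19 for the Sec61 list and -0.083 for the particle. With equal library totals these medians were -0.15 and -0.043, and after quantile normalization -0.14 and -0.044.

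In the GET pathway, which like the EMC inserts tail-anchored proteins, 1 of 7 genes was called, 14.3% beside 14.1% of all genes tested. WRB, the older symbol of the receptor subunit GET1 and a relative of EMC3, fell from 513 and 503 to 370 and 400 normalized counts (adjusted p = 0.0394 in limma), and this call was lost when any 1 library was left out, with equal library totals and after quantile normalization. The median of that list was -0.10, and 0.021 without control 2. In the multipass translocon, which takes up proteins with several membrane segments, 1 of 9 was called, 11.1% and so also near the share of all genes. TMEM147 fell by 0.45 on the log2 scale, from 714 and 784 to 583 and 513 (adjusted p = 0.0219 in limma), and the list median was 0.0050, and -0.066 without control 1. This call was lost without control 2 and without siHNF4A 2, and the list had 2 calls without control 1, both lower, and 1 in each direction with equal library totals and after quantile normalization. Of the 4 genes of the TRAP complex, which assists the translocon, SSR3 was called and fell by 0.24, a call that was lost without control 2, siHNF4A 1 or siHNF4A 2 and after quantile normalization, while the list had 2 calls without control 1. None of 11 tested genes of the oligosaccharyltransferase, which adds sugar chains, and none of 5 signal peptidase genes were called in limma. There 4 and 0 genes had an unadjusted p under 0.05. The 14.1% above is for the adjusted p, and the share of all genes at the unadjusted threshold in this fit is not given here. These counts are therefore not read as a result about the lists. Without control 1, 1 oligosaccharyltransferase gene was called lower.

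Of 19 tested genes of ER-associated degradation, which removes misfolded proteins, 1 was called, 5.26% beside 14.1% of all genes. DERL1, a channel component, fell from 3871 and 3645 to 2881 and 2861 normalized counts (adjusted p = 0.0041 in limma). With equal library totals and after quantile normalization 1 gene of this list was called lower and 1 higher, and with genes averaging 50 or more 2 were called lower. Of 24 genes of the unfolded protein response, the programme induced by misfolded ER proteins, 5 were called, 20.8% beside 14.1% of all genes tested. Of these, 3 were lower and 2 higher, beside 8.11% of all genes called lower and 6.02% called higher. The balance turned to 2 lower and 3 higher with equal library totals and after quantile normalization, where XBP1 was not called, and it was 1 lower and 3 higher without control 2 and 5 lower and 1 higher without control 1. PDIA6, a disulfide isomerase, fell by 0.29 on the log2 scale and ERN1, the stress sensor IRE1, by 0.41, while the chaperone partner DNAJC3 rose by 0.31. The remaining 2 calls, named outside the rule, were XBP1, the target of IRE1, with -0.29, and the sensor ATF6 with 0.28. The list median was -0.070, and 0.021 without control 2. Calls in this list fell without siHNF4A 1 and without siHNF4A 2, as did those over all genes tested.

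Of 24 genes of sterol synthesis and uptake, a pathway with known EMC clients, 3 were called higher and 3 lower, with a median of -0.078. The 6 calls are 25% of the list, beside 14.1% of all genes tested, of which 6.02% were higher and 8.11% lower. With equal library totals 4 were higher and 1 lower, and after quantile normalization 3 and 1. The median was -0.034 without control 1 and -0.019 without siHNF4A 2. INSIG1, which retains the sterol sensor in the ER, rose from 2429 and 2496 to 3609 and 3254 normalized counts (adjusted p = 0.0026 in limma). MVD, an enzyme of the mevalonate pathway, rose from 276 and 320 to 513 and 450, and the desaturase SC5D from 1240 and 1292 to 1580 and 1691. The calls of MVD and SC5D were lost with all genes above 0 tested and without the variance trend. MSMO1, EBP and SQLE, other enzymes of the route and named outside the rule, fell by 0.29, 0.33 and 0.23 on the log2 scale. FDFT1 and SOAT1 encode known EMC clients and were named for that reason. FDFT1 had 5678 and 6041 in the control and 6344 and 5978 in the knockdown (adjusted p = 0.482 in limma), and SOAT1 had 109 and 167 against 112 and 132 (adjusted p = 0.710 in limma). Calls in this list fell without control 2, siHNF4A 1 or siHNF4A 2, as did those over all genes tested.

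**Figure D5:**
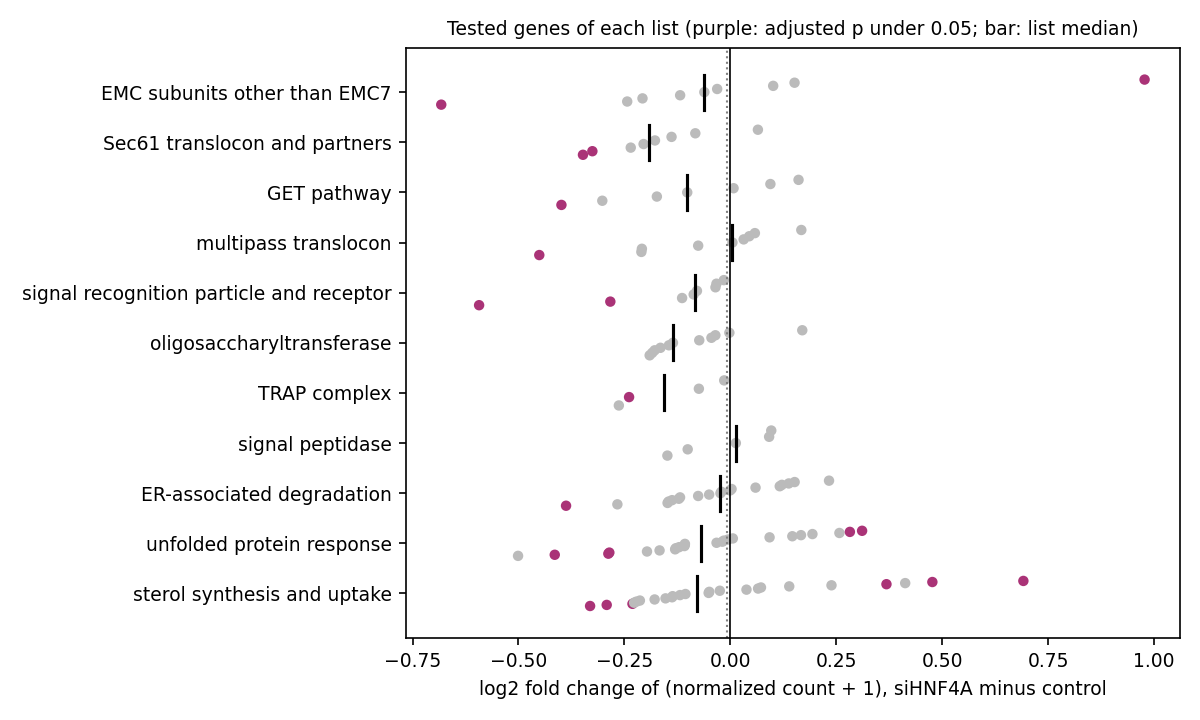
Log2 fold change of the normalized count plus 1 (horizontal axis, siHNF4A minus control) of the tested genes of each list, 1 point per gene, with the list median as a bar and the median of all tested genes as a dotted line; purple points had an adjusted p under 0.05. EMC7 is left out of the EMC list drawn. Among the points drawn MMGT1 at -0.68 is the lowest and EMC6 at 0.98 the highest, with SRPRB at -0.59 and MVD at 0.69 next to them.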

How the data were processed

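RNA-seq libraries of ESO26 cells, 2 control and 2 siHNF4A, were grouped by their titles. The authors deposited 1 table of normalized counts, a signal value that is fractional; whether it was divided by gene length is not given. The submitters' processing notes name Bowtie, Bowtie2, Trim Galore, Picard, MACS2 and hg19 without roles, and the counter and normalization method are not given in the sources used here. Between 11.5% and 23.5% of values under 50 per library lay within 0.02 of a whole multiple of its commonest low value, so whole reads were not recovered, no count model was fitted, and the depth is unknown, with no counting intervals. The peak lists and 4C libraries were not analysed here, as no annotation of hg19 was used.

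limma 3.58.1 in R 4.3.3 (lmFit, eBayes with an intensity trend, no block) was run on log2(normalized count + 1) for the 15577 genes that averaged 10 normalized counts or more, with Benjamini-Hochberg adjustment and a threshold of 0.05. Such fold changes understate the change of low genes. The script was tested on simulated data. The members and lists were chosen with earlier results of these data known. Named genes are the 10 subunits, HNF4A, up to 3 genes with the smallest p per list, the neighbours of EMC7, the genes next to it in rank and the 5 nearest profiles; others are marked or called members of lists. Single results of some genes chosen by this rule are not reported here, and these genes stay in the counts. Alternatives were other pseudocounts, filters and scalings, no variance trend, a replicate block and leaving out each library.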

Additional observations from a re-analysis of the deposited data

How the results depend on the processing

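The log2 fold change of EMC7 lay between -1.62 and -1.58 with all 4 libraries and between -1.75 and -1.50 when 1 was left out. The share of EMC7 in the summed subunits differed (siHNF4A minus control) by -5.85 to -5.42 percentage points when 1 library was left out. Of 117 values of the other 9 subunits under the alternatives, 108 kept their direction and their side of the threshold and 4 lost the call, which were those of EMC6 and MMGT1 given above. The other 5 changed sign: EMC1 had 0.017 after quantile normalization, 0.0081 with equal library totals and 0.0044 without siHNF4A replicate 2, and EMC9 had -0.050 without control replicate 2 and -0.016 without siHNF4A replicate 1. With 1 library left out EMC1 ranged from -0.066 and EMC9 up to 0.35, and neither gene was called in any setting. The median of the 9 was -0.022 with equal library totals, and between -0.081 and -0.050 when 1 library was left out.

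Without the variance trend HNF4A kept its log2 fold change of -1.97 but not its call (adjusted p = 0.0919 in limma), and 0 of all genes, 0 of the 9 subunits and 0 of the listed genes were called, while 3524, 2 and 22 had a p under 0.05 before adjustment. Testing every gene above 0 in any library called 726 genes, 1 subunit and 5 listed genes, out of 30247 tested. When 1 library was left out, between 1013 and 2449 genes, 1 and 2 subunits and 5 and 22 listed genes were called, the fewest genes without siHNF4A replicate 2 and 1101 without siHNF4A replicate 1. The median of the GET pathway genes turned from -0.10 to 0.021 without control replicate 2, and reached -0.13 without control replicate 1. Causes were not tested beyond this.

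The replicate block gave 2428 called genes, 2 called subunits and 18 listed genes, and it changed no call among the 9 subunits. The deviations of equally numbered libraries from their group means were uncorrelated (Pearson correlation of -0.019 across 15577 genes), so replicate numbers are treated as names only. The unknown depth limits what can be said of EMC6 and EMC9, which had the lowest control values of the complex and the widest spread between replicates.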
